A study of Homo sapiens with 6 samples.

Results

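The TRIM (tripartite motif) ubiquitin ligases were examined in RNA sequencing libraries of HepG2 cells, a human hepatic tumour cell line, in which STAT3 had been lowered with a short hairpin RNA (shRNA). Members were the rows of the gene count table whose symbol is TRIM followed by a number and at most 1 letter. This gave 56 of 27452 rows, of which 0 were pseudogenes. The STAT3 shRNA group and the control shRNA group each had 3 libraries, numbered 1 to 3. Per the labels, both lines were made with an shRNA and grown in DMEM with serum and antibiotics, and total RNA was used. The labels do not say whether the numbered libraries are separate cultures, clones or hairpin sequences, and the spread behind the p-values may therefore be technical. The difference between the constructed lines cannot be told apart from the effect of the shRNA.

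TRIM proteins carry, from the N terminus, a RING finger that binds a ubiquitin-loaded E2 enzyme, B-box zinc fingers and a coiled coil through which they pair, and then a C-terminal part that selects the target. The C-terminal parts define the subfamilies: the SPRY domain of the antiviral members, the PHD finger with a bromodomain of the chromatin-bound members, NHL repeats, and rarer ones. In the liver as in other tissues, TRIM ligases are known for control of retroviruses, of cytosolic RNA and DNA sensing, and of transcription. Several are themselves induced by interferon. STAT3 is a transcription factor that answers cytokines of the interleukin 6 family.

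Total counts were 17694642 to 25862027 in the STAT3 shRNA libraries and 17408543 to 20133064 in the control libraries. Levels are given in CPM, the count divided by the TMM-scaled library size and put on a common scale, for which a count of 0 allows up to 0.113 to 0.164 CPM in a STAT3 shRNA library and 0.158 to 0.175 CPM in a control library (3 counts, counting error only). STAT3 itself lay at 34.8, 35.8 and 36.2 CPM with the STAT3 shRNA, against 261.5, 246.7 and 246.3 CPM with the control shRNA (log2 fold change -2.82 ± 0.0845, edgeR adjusted p = 2.19e-07). Control libraries 1 and 3 were the least alike pair within a group, with a chi-square of 46.8 per degree of freedom over genes, and the other pairs gave 4.39 to 19.96. The hepatocyte markers went against the label. Of 15 listed, 8 were measured and 2 of them, TF and HNF4A, reached 1 CPM in a library, while ALB, APOA1, APOA2 and FGG had at most 3 counts in any library. The 8 markers summed to 6.05 to 9.23 CPM in the STAT3 shRNA libraries and 2.28 to 3.95 CPM in the control libraries. HNF4A, which made up most of the sum with the STAT3 shRNA, rose (6.58 CPM with the STAT3 shRNA and 1.51 CPM with the control, log2 fold change 2.12 ± 0.240, edgeR adjusted p = 4.06e-04), and TF was not called (-0.97 ± 0.518). Of 5 epithelial markers 4 rose, and the sum of the 5 was 4643 to 5085 CPM with the STAT3 shRNA and 2813 to 3375 CPM with the control shRNA. Most of this sum was KRT8 (means of 2882 CPM with the STAT3 shRNA and 1814 CPM with the control) and KRT18 (1747 and 1256 CPM). EPCAM was far lower, at 10.5 CPM with the STAT3 shRNA and 3.06 CPM with the control. CDH1, the epithelial cadherin, was scarce and not called (0.734 and 0.576 CPM). Fibroblast markers, of which 5 of 7 were measured, summed to 35.6 to 37.3 CPM with the STAT3 shRNA and 53.2 to 61.2 CPM with the control. In this list COL1A1 was called lower, at 15.3 CPM with the STAT3 shRNA and 40.3 CPM with the control, while DCN, at 14.6 CPM with the STAT3 shRNA and 11.9 CPM with the control, and PDGFRB, at 6.06 CPM with the STAT3 shRNA and 4.82 CPM with the control, were not called. The 3 measured blood cell markers of 5 summed to at most 0.451 CPM with the STAT3 shRNA and 0.801 CPM with the control, and the 3 measured endothelial markers of 5 to at most 1.75 and 1.76 CPM in these groups. The part of these shifts in the TRIM values was not tested.

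Most of the members, which are the genes with a row in the count table, were transcribed. Family genes without a row, such as TRIM49, are not counted. Of the 56 members, 39 averaged at least 1 CPM over the 6 libraries, 30 at least 10 CPM and 6 at least 100 CPM. Per kilobase of annotated exon, TRIM28 had the highest level. TRIM28, or KAP1, is the co-repressor that KRAB zinc finger proteins bring to DNA, and it averaged 99.5 CPM per kb. TRIM16L followed at 39.0 CPM per kb, TRIM29 at 35.1, TRIM16 at 29.9 and TRIM26 at 20.1 CPM per kb. TRIM16 and TRIM16L share sequence, so the order of their levels is uncertain. At the low end of the tested members TRIM34, TRIM17 and TRIM22 averaged 0.318, 0.120 and 0.0910 CPM per kb. The 7 members with the highest CPM, without regard to length, held 60.2% of the summed CPM of the members. That sum was 2418, 2496 and 2379 CPM in STAT3 shRNA libraries 1, 2 and 3, against 2368, 2510 and 2528 CPM in control libraries 1, 2 and 3, and the groups overlapped.

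**Figure D1:**
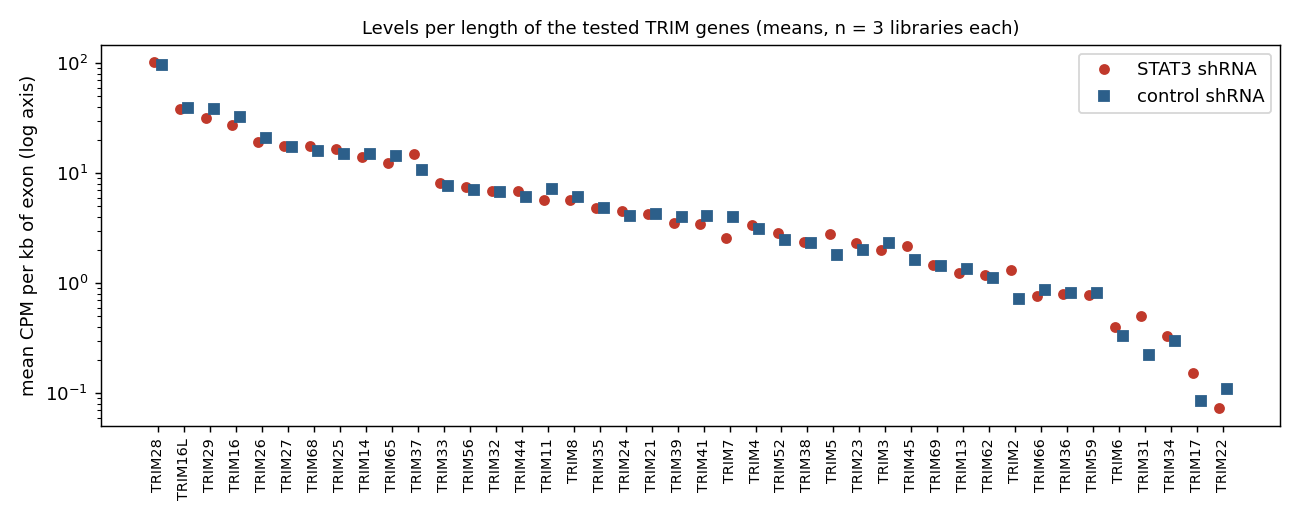
Mean level of each of the 42 tested TRIM genes in CPM per kb of exon (log axis), in the STAT3 shRNA group (circles) and the control group (squares), n = 3 libraries each, ordered by the mean over all libraries. TRIM28 lies highest at 99.5 CPM per kb, and the paired symbols are close for most genes, with TRIM2 and TRIM31 among those that part.

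The comparison asked which TRIM genes differed with the STAT3 shRNA. Few did: of the 42 members with enough counts to be tested, 4 rose (TRIM5, TRIM2, TRIM31 and TRIM37), 1 fell (TRIM29) and 37 did not pass a false discovery rate (FDR) of 0.05. The 5 calls are 11.9% of the tested members, where 17.5% of all 14999 tested genes were called. In the higher direction the share was 9.52% of members against 9.39% of all genes, and in the lower direction 2.38% against 8.13%. Of all calls 53.6% were higher, and 68.7% were with library totals in place of TMM scaling, where 5 members were called higher and 0 lower. The tested members had a median log2 fold change (STAT3 shRNA over control) of 0.03, and all tested genes one of -0.01. An absolute log2 fold change under 0.25 was found for 30 of the 42 members, or 71.4%, and for 52.4% of all tested genes, at a median level of 21.3 CPM for the members and 22.9 CPM for all. The 3 libraries of one group lay wholly above or below the other in 11 members, or 26.2%, and in 35.7% of all tested genes. An unadjusted p under 0.05 was reached by 10 of the 42 tested members, and by 31.4% of all tested genes.

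Each gene was tested with edgeR's quasi-likelihood test with Benjamini-Hochberg adjustment over all tested genes, and log2 fold changes below are given ± SE. Mean levels in CPM are given ± SD (n = 3 libraries in each group). The 95% interval of the log2 fold change lay within -0.5 and 0.5 for 26 of the 42 tested members. The 5 calls were not stable to leaving out a library. Without STAT3 shRNA library 1, or without STAT3 shRNA library 3, 0 members were called, and without control library 2 only TRIM2 was. Calls over all genes fell in these fits too. With every library 2627 of 14999 tested genes were called. In these fits, in the same order, 1462 of 15267, 1475 of 15365 and 1527 of 15448 were. Without STAT3 shRNA library 2 or control library 3 the numbers were 2089 of 15268 and 2458 of 15341. Without control library 1 the calls rose to 4098 of 15455, and 3 members were called higher and 3 lower.

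**Figure D2:**
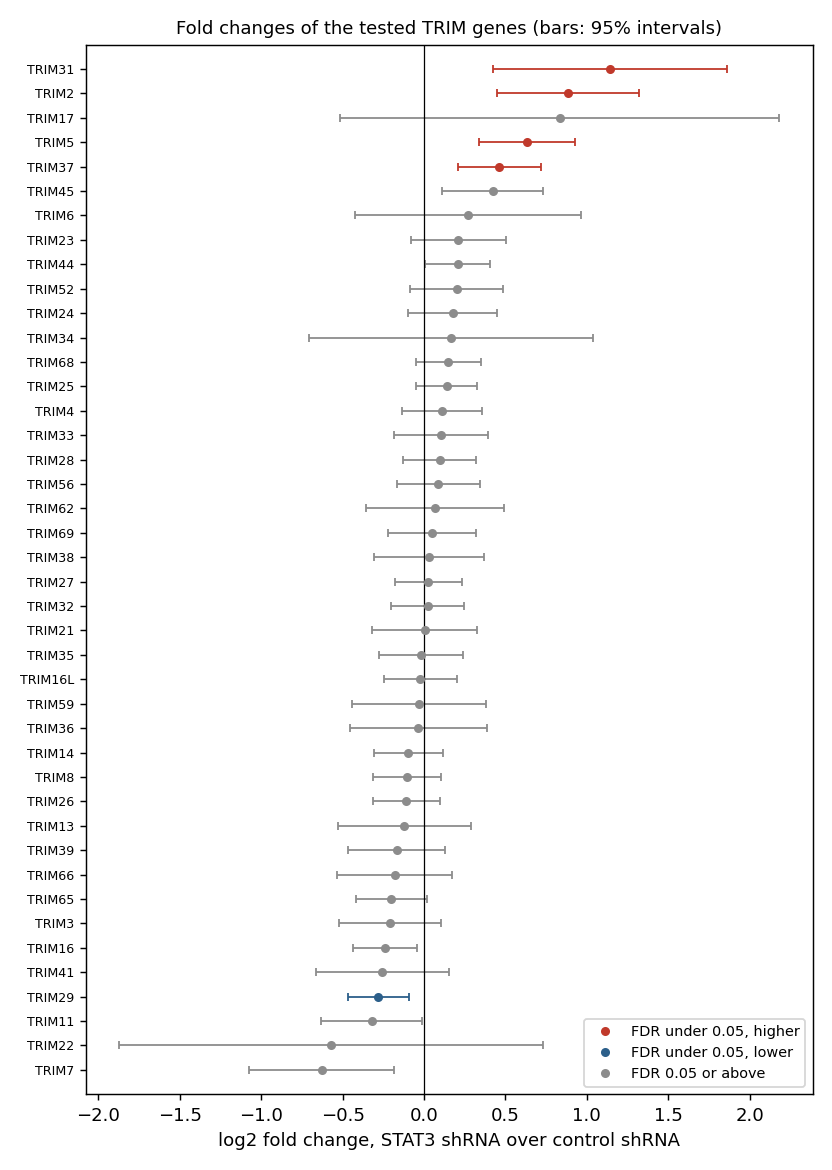
Log2 fold change of the 42 tested TRIM genes, STAT3 shRNA over control shRNA, with bars for the 95% interval. TRIM31, TRIM2, TRIM5 and TRIM37 are the 4 called higher and TRIM29 the 1 called lower, while TRIM22 and TRIM17, at under 1 CPM, have the widest bars.

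TRIM5 had the smallest adjusted p of the tested members. It encodes the cytosolic factor that recognises incoming retroviral capsids, and in primates its sequence decides which retroviruses are blocked. TRIM5 (ENSG00000132256.18, chromosome 11) lay at 14.2, 12.7 and 13.7 CPM in STAT3 shRNA libraries 1, 2 and 3, against 9.62, 7.85 and 8.70 CPM in control libraries 1, 2 and 3. Every STAT3 shRNA library was above every control library. The means were 13.5 ± 0.772 CPM with the STAT3 shRNA and 8.72 ± 0.889 CPM with the control (SD, n = 3 each), which is 1.55-fold higher (log2 fold change 0.63 ± 0.130, edgeR adjusted p = 0.00964). The call was lost without STAT3 shRNA library 1 (adjusted p = 0.0566), STAT3 shRNA library 3 (0.0508) or control library 2 (0.0566), with log2 fold changes of 0.56 to 0.62 in these fits. Exons of AC104389.4, on the same strand, overlap TRIM5. Of the distinct 50-base windows of TRIM5 transcripts 6.54% occur in other genes, and 5.59% occur in AC104389.4.

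**Figure D3:**
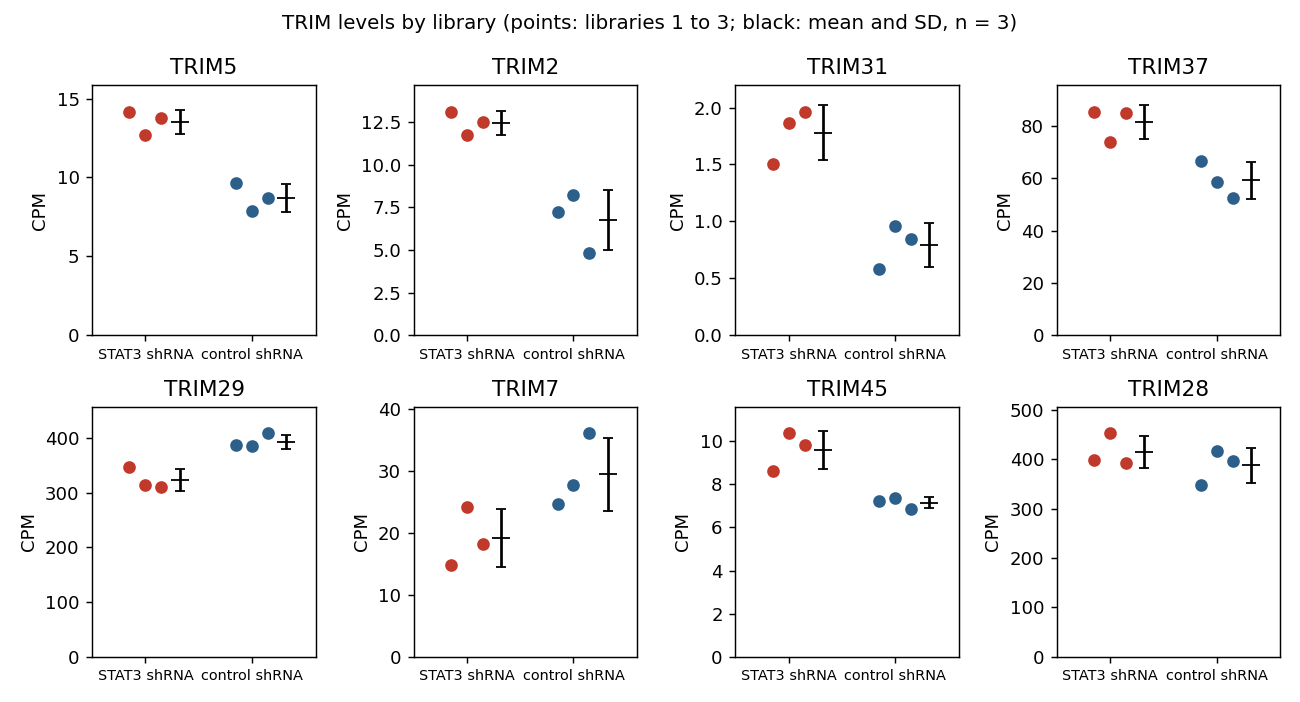
Level in CPM of 8 TRIM genes in each library, with STAT3 shRNA libraries (red) left of control libraries (blue), and the mean and SD of each group in black (n = 3). The groups do not overlap for TRIM5, TRIM2, TRIM31, TRIM37, TRIM29, TRIM7 and TRIM45, and overlap for TRIM28, the member with the highest level.

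TRIM5 is 1 of 10 members listed as interferon-inducible, and the other 9 did not pass the test (median log2 fold change of the 10, 0.04). This is near the 9.39% of all tested genes that were called higher. TRIM25, the ligase of the RNA sensor RIG-I, had 151.6, 168.7 and 150.8 CPM in STAT3 shRNA libraries 1, 2 and 3 and 142.8, 142.5 and 142.3 CPM in control libraries 1, 2 and 3 (log2 fold change 0.14 ± 0.0830, edgeR adjusted p = 0.288). Its groups did not overlap. TRIM21, the cytosolic receptor for antibody-coated viruses, had 8.31 ± 0.744 CPM with the STAT3 shRNA and 8.30 ± 0.744 CPM with the control (0.01 ± 0.143). TRIM26, at 84.8 ± 6.06 CPM with the STAT3 shRNA and 91.3 ± 4.36 CPM with the control, and TRIM14, an adaptor of the mitochondrial protein MAVS without a RING finger, at 77.3 ± 4.94 CPM with the STAT3 shRNA and 82.6 ± 5.73 CPM with the control, differed by -0.11 ± 0.0900 and -0.10 ± 0.0935 on the log2 scale. TRIM56, linked to sensing of cytosolic DNA, had 82.6, 92.6 and 75.6 CPM with the STAT3 shRNA and 69.2, 80.8 and 85.8 CPM with the control, with overlap (0.09 ± 0.113). TRIM69 differed by 0.05 ± 0.119 and TRIM38, a feedback inhibitor of innate signalling, by 0.03 ± 0.150. TRIM22 and TRIM34 were scarce. TRIM22, an antiviral neighbour of TRIM5, had 15, 2 and 12 counts in STAT3 shRNA libraries 1 to 3 and 12, 10 and 14 counts in control libraries 1 to 3, and its 95% interval of -1.87 to 0.73 leaves changes of either sign possible. TRIM34 had 26, 23 and 11 counts with the STAT3 shRNA and 18, 14 and 12 with the control.

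The promoters of the interferon-inducible members are shown because interferon acts through a short repeated element. Promoters of the RefSeq annotation (GRCh38.p14, 250 bases before to 50 bases after a start) were found for 43 of the 56 members. The ISRE-type motif GAAANNGAAA, searched on both strands, was present at 9 of these 43 genes, and in 3.57% of all 35116 promoters or 4.38% of all genes. Of the 10 interferon-inducible members, 9 had a promoter (TRIM22 had none) and 6 of the 9 held the motif: TRIM5, TRIM14, TRIM21, TRIM26, TRIM34 and TRIM69. The other holders were TRIM2, TRIM16 and TRIM44. Each stretch is printed 5′ to 3′ on the strand of its gene, with the motif or its reverse complement in capitals; TRIM21 and TRIM26 each hold a second, overlapping match that is not shown.
TRIM5 (chr11:5685082-5685111, minus strand): atagtttatcTTTCACTTTCctgccctgag
TRIM14 (chr9:98119229-98119258, minus strand): acggccgaggTTTCGGTTTCccttgggagc
TRIM21 (chr11:4393666-4393695, minus strand): cttctgagcgGAAACTGAAAgtgaaatagg
TRIM26 (chr6:30213575-30213604, minus strand): ctgatttcagTTTCCATTTCgctgcccctg
TRIM34 (chr11:5624901-5624930, plus strand): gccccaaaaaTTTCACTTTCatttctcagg
TRIM69 (chr15:44736456-44736485, plus strand): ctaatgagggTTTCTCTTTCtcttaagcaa
The match of TRIM5 begins 27 bases before the start, that of TRIM14 26 bases before it, and that of TRIM21 18 bases into the transcript for the first copy. The upstream 250 bases of TRIM5, the member of this group that rose, are given whole, with the motif in capitals.
TRIM5 upstream (chr11:5685075-5685324, minus strand): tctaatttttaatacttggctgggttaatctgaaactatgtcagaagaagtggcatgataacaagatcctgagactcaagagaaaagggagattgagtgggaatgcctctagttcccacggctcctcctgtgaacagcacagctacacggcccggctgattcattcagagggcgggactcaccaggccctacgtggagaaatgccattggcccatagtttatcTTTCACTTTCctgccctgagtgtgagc
These 6 genes with the motif had log2 fold changes of 0.63 (TRIM5), -0.10 (TRIM14), 0.01 (TRIM21), -0.11 (TRIM26), 0.17 (TRIM34) and 0.05 (TRIM69), so TRIM5 was the 1 of the 6 that passed the test. A STAT-type palindrome, TTCNNNGAA on both strands, was present at 7 of the 43 members with a promoter, and in 7.66% of all promoters or 9.38% of all genes. The 7 include TRIM40, TRIM46 and TRIM49B, which were not tested. The 4 tested ones are shown because they include TRIM2, which rose, beside TRIM3, TRIM7 and TRIM16, which were not called.
TRIM2 (chr4:153152167-153152195, plus strand): atggacattcTTCTTAGAAggcctagtgc
TRIM3 (chr11:6474573-6474601, minus strand): aaggcgatgaTTCTGAGAAttgtccagtg
TRIM7 (chr5:181204440-181204468, minus strand): tctttctccaTTCCAGGAAgcccagcgct
TRIM16 (chr17:15683117-15683145, minus strand): tgctggcaatTTCCAGGAAgatacgtgga
A match describes these letters and does not show that a factor binds there.

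Genes of RNA and DNA sensing that work with these ligases gave 2 calls among 19 tested, both higher, with a median log2 fold change of 0.15. Of all tested genes 17.5% were called, and 9.39% were called higher. TAB2, which brings the kinase TAK1 to ubiquitin chains, had 72.2 ± 11.7 CPM with the STAT3 shRNA and 46.5 ± 7.72 CPM with the control (0.63 ± 0.153, edgeR adjusted p = 0.0206). IKBKE, a kinase that activates interferon regulatory factors, had 11.5 ± 3.0 CPM with the STAT3 shRNA and 6.64 ± 0.466 CPM with the control (0.80 ± 0.193, edgeR adjusted p = 0.0212). No member of this list was called without STAT3 shRNA library 1 or without control library 2, 1 was without STAT3 shRNA library 2 or 3, and 4 were without control library 1. Of 5 genes for conjugation of the ubiquitin-like ISG15, for which TRIM25 is a ligase, 1 rose and 0 fell (median 0.20). Of all tested genes 9.39% were called higher and 8.13% lower. The gene that rose was the activating enzyme UBA7, at 2.16 ± 0.832 CPM with the STAT3 shRNA and 0.582 ± 0.0579 CPM with the control (1.89 ± 0.385, edgeR adjusted p = 0.00931). UBA7 was not called without STAT3 shRNA library 1. Without control library 1 the list had 2 calls.

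Among the NHL-repeat members, 1 of 3 rose. TRIM2, which in mouse neurons ubiquitinates the neurofilament light chain, lay at 13.1, 11.7 and 12.5 CPM in STAT3 shRNA libraries 1, 2 and 3, against 7.23, 8.22 and 4.797 CPM in control libraries 1, 2 and 3. The groups did not overlap, and control library 3 was the lowest. TRIM2 (ENSG00000109654.15, chromosome 4) had means of 12.5 ± 0.693 CPM with the STAT3 shRNA and 6.75 ± 1.76 CPM with the control (SD, n = 3 each), a log2 fold change of 0.89 ± 0.192 and an interval of 0.45 to 1.32 (edgeR adjusted p = 0.0126). The call was lost without STAT3 shRNA library 1 (adjusted p = 0.0601) or library 3 (0.0553). None of its 20 tested neighbours, 10 on each side in the order of the GENCODE 29 annotation, was called, and their median log2 fold change was 0.05. TRIM3, a brain-enriched relative, had 13.6 ± 0.922 CPM with the STAT3 shRNA and 15.7 ± 2.41 CPM with the control (-0.21 ± 0.138), and TRIM32, mutated in a muscular dystrophy, had 25.6, 28.0 and 25.0 CPM with the STAT3 shRNA and 26.7, 24.8 and 25.9 CPM with the control (0.02 ± 0.0993). Neither was called.

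TRIM37, the MATH-domain member, rose. It acts at peroxisomes and at the centrosome, and its loss causes the growth disorder mulibrey nanism. TRIM37 (ENSG00000108395.14, chromosome 17) lay at 85.6, 74.1 and 85.1 CPM in STAT3 shRNA libraries 1, 2 and 3, against 66.8, 58.6 and 52.3 CPM in control libraries 1, 2 and 3. All STAT3 shRNA libraries were above all controls. The means were 81.6 ± 6.48 CPM with the STAT3 shRNA and 59.2 ± 7.24 CPM with the control (SD, n = 3 each), 1.38-fold higher with the STAT3 shRNA (log2 fold change 0.46 ± 0.113, edgeR adjusted p = 0.0218). Without STAT3 shRNA library 1, STAT3 shRNA library 3 or control library 2 the adjusted p was 0.106, 0.102 and 0.0979. Of its 20 tested neighbours 4 were called higher and 0 lower, where 9.39% and 8.13% of all tested genes were, with a median log2 fold change of 0.25, the highest neighbour median of the 42 tested members. Exons of PPM1E and AC099850.1, on the other strand, overlap TRIM37. Reads of overlapping genes cannot be told apart without a known strand setting.

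TRIM31 had the largest log2 fold change of the tested members and the lowest level of those called. It encodes a RING ligase of the intestinal epithelium that modifies MAVS, and lies on chromosome 6. TRIM31 (ENSG00000204616.11) had 40, 38 and 36 counts in STAT3 shRNA libraries 1, 2 and 3, and 10, 18 and 16 counts in control libraries 1, 2 and 3. In CPM these were 1.503, 1.87 and 1.96 with the STAT3 shRNA and 0.583, 0.961 and 0.843 with the control, without overlap. The log2 fold change was 1.14 ± 0.319 with an interval of 0.42 to 1.86 (edgeR adjusted p = 0.0374). The call was lost in 8 of 12 alternative fits, among them each fit that left out 1 library (adjusted p = 0.0656 to 0.140). Its antisense transcript TRIM31-AS1 overlaps its exons. The other tested members with no C-terminal domain were not called. TRIM8, known as a partner of SOCS1 and PIAS3, inhibitors of STAT signalling, had 53.7, 54.6 and 53.9 CPM with the STAT3 shRNA and 53.2, 59.3 and 61.7 CPM with the control (-0.10 ± 0.0921, edgeR adjusted p = 0.488). TRIM52 differed by 0.20 ± 0.126, and TRIM56 is given above.

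TRIM29, the member that fell, has B-boxes but no RING finger and is abundant in stratified epithelia. TRIM29 (ENSG00000137699.17, chromosome 11) lay at 346, 314 and 310 CPM in STAT3 shRNA libraries 1, 2 and 3, against 386, 385 and 408 CPM in control libraries 1, 2 and 3. The groups did not overlap, with a gap of 38.4 CPM between the nearest libraries. The means were 323 ± 20.1 CPM with the STAT3 shRNA and 393 ± 12.9 CPM with the control (SD, n = 3 each), a small change of -0.28 ± 0.0826 on the log2 scale (edgeR adjusted p = 0.0462). It was lost in 9 of 12 alternative fits, including upper-quartile scaling (-0.23, adjusted p = 0.0892) and library totals (-0.18, adjusted p = 0.153). The other 5 members without a RING finger were not called. TRIM16, which marks damaged membranes for autophagy, was at 151, 166 and 147 CPM in STAT3 shRNA libraries 1, 2 and 3 and at 173, 193 and 182 CPM in control libraries 1, 2 and 3 (-0.24 ± 0.0878, edgeR adjusted p = 0.0962). Its partial copy TRIM16L had 167 ± 11.02 CPM with the STAT3 shRNA and 170 ± 16.7 CPM with the control (-0.02 ± 0.0994). Of the distinct 50-base windows of TRIM16 transcripts 28.9% occur in TRIM16L, and 39.4% of those of TRIM16L occur in TRIM16, so reads may have moved between them. TRIM44, which carries a zinc finger of the deubiquitinase type, had 91.0 ± 5.50 CPM with the STAT3 shRNA and 78.9 ± 3.90 CPM with the control without overlap (0.21 ± 0.0881, edgeR adjusted p = 0.146). TRIM66, which carries a PHD finger and a bromodomain, differed by -0.18 ± 0.156.

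The chromatin-bound members with a RING finger, a PHD finger and a bromodomain, TRIM24, TRIM28 and TRIM33, were not called. TRIM28 lay at 399.2, 452.5 and 392.4 CPM in STAT3 shRNA libraries 1, 2 and 3, against 348.4, 417.7 and 397.2 CPM in control libraries 1, 2 and 3. The groups overlapped (0.10 ± 0.0991, edgeR adjusted p = 0.546), with an interval of -0.13 to 0.32. TRIM24, which reads histone H3 and ubiquitinates p53, had 42.3 ± 5.10 CPM with the STAT3 shRNA and 37.4 ± 3.57 CPM with the control (0.18 ± 0.121), and TRIM33, which acts on Smad4, had 78.2 ± 7.48 CPM with the STAT3 shRNA and 72.8 ± 11.3 CPM with the control (0.10 ± 0.127). Of 14 genes of the TRIM28 co-repressor pathway 2 rose and 0 fell (median 0.12), where 9.39% of all tested genes were called higher and 8.13% lower. CBX5, a heterochromatin protein 1 gene, had 274 ± 19.7 CPM with the STAT3 shRNA and 192 ± 22.7 CPM with the control (0.51 ± 0.107, edgeR adjusted p = 0.0103). ATF7IP, a cofactor of the histone methyltransferase SETDB1, had 41.2 ± 2.80 CPM with the STAT3 shRNA and 26.9 ± 5.74 CPM with the control (0.62 ± 0.149, edgeR adjusted p = 0.0204). Without STAT3 shRNA library 3 or control library 2 there were 0 calls in this list, and without STAT3 shRNA library 1 there was 1.

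TRIM7 and TRIM45 had the next smallest adjusted p after the 5 called members. TRIM7, which binds glycogenin and recognises proteins by their C-terminal glutamine, had 14.9, 24.2 and 18.3 CPM in STAT3 shRNA libraries 1, 2 and 3, against 24.6, 27.8 and 36.0 CPM in control libraries 1, 2 and 3. The groups were separate by 0.457 CPM, and the log2 fold change was -0.63 ± 0.197 (edgeR adjusted p = 0.0574). TRIM7 was called lower in 5 of 12 alternative fits, among them the DESeq2 Wald test (adjusted p = 0.0186) and the fit without a count filter (0.0350). TRIM45, a member with a filamin repeat, had 8.61, 10.4 and 9.81 CPM with the STAT3 shRNA and 7.23, 7.37 and 6.85 CPM with the control (0.42 ± 0.137, edgeR adjusted p = 0.0650). It was called higher with upper-quartile scaling (adjusted p = 0.0427) and with library totals (0.0317). TRIM11, a ligase of the SPRY group farther from the threshold, had 45.9, 54.0 and 46.7 CPM with the STAT3 shRNA and 48.9, 65.9 and 68.2 CPM with the control, and control library 1 lay within the STAT3 shRNA range. Its log2 fold change of -0.32 ± 0.138 (edgeR adjusted p = 0.148) became -0.44 without that library (adjusted p = 0.0113).

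**Figure D4:**
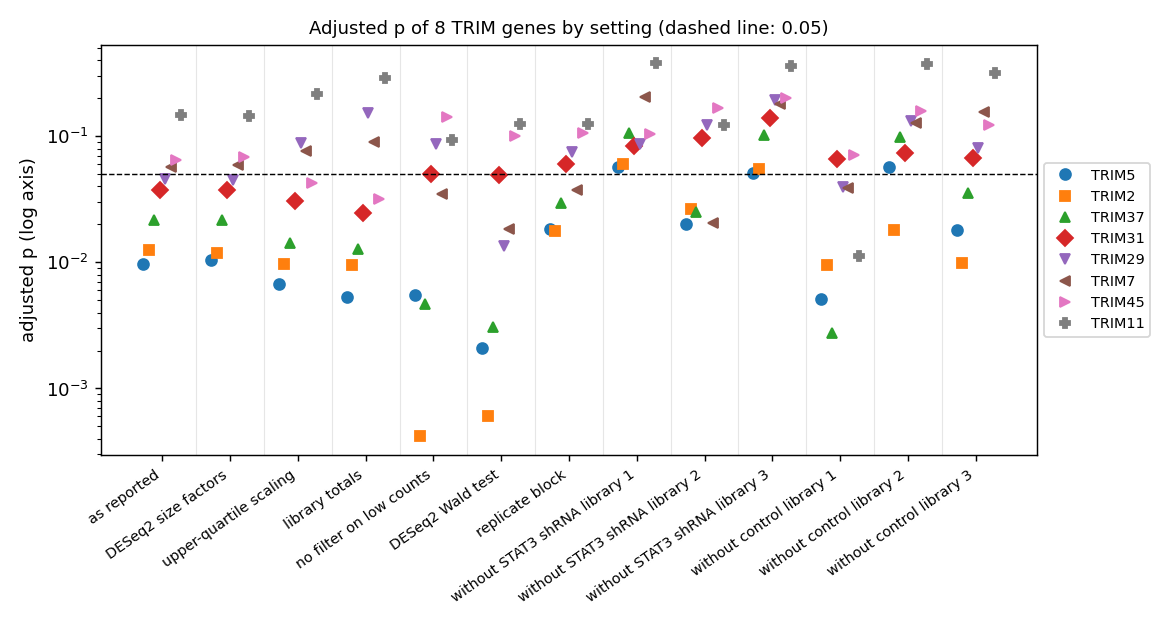
Adjusted p (log axis) of 8 TRIM genes as reported and under 12 alternative settings, with a dashed line at 0.05. TRIM5, TRIM2 and TRIM37 stay below the line in all 6 settings that keep every library and lie above it without STAT3 shRNA library 1 or 3, while TRIM31 and TRIM29 cross it in 8 and 9 of the 12.

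The remaining tested members were not called. In the SPRY group, the RET finger protein gene TRIM27 had 141 ± 3.13 CPM with the STAT3 shRNA and 138 ± 12.6 CPM with the control (0.03 ± 0.0912). TRIM68 had 75.9 ± 2.15 CPM with the STAT3 shRNA and 68.5 ± 4.801 CPM with the control (0.15 ± 0.0889), and TRIM65, a ligase of the RNA sensor MDA5, had 49.2 ± 0.555 CPM with the STAT3 shRNA and 56.5 ± 4.83 CPM with the control (-0.20 ± 0.0956, edgeR adjusted p = 0.190), with no overlap. TRIM41 (-0.26 ± 0.181), TRIM39 (-0.17 ± 0.132), TRIM35 (-0.02 ± 0.114), TRIM62 (0.07 ± 0.187), TRIM4 (0.11 ± 0.108), TRIM6 (0.27 ± 0.307) and TRIM17 (0.83 ± 0.597) had log2 fold changes of both signs. TRIM17 rested on 20, 7 and 10 counts with the STAT3 shRNA and 3, 3 and 11 with the control. TRIM36, which binds microtubules through a COS box, differed by -0.03 ± 0.186 with 5.15, 4.32 and 5.13 CPM in STAT3 shRNA libraries and 5.95, 4.64 and 4.38 CPM in control libraries. TRIM23, which carries a GTPase domain of the ARF type, had 10.3, 11.5 and 12.0 CPM with the STAT3 shRNA and 10.6, 9.08 and 9.59 CPM with the control (0.21 ± 0.130). Of the membrane-anchored members, TRIM13, a ligase of the endoplasmic reticulum, had 8.94, 8.89 and 12.2 CPM with the STAT3 shRNA and 13.1, 9.82 and 9.59 CPM with the control (-0.12 ± 0.181), and TRIM59 had 6.22 ± 1.01 CPM with the STAT3 shRNA and 6.36 ± 0.813 CPM with the control (-0.03 ± 0.182).

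Log2 fold changes of neighbouring members were of both signs, but most of these genes were not called, so their directions are uncertain. TRIM5 lies on chromosome 11 within 10 tested genes of TRIM21, TRIM68, TRIM6, TRIM34, TRIM22 and TRIM3, and it was the 1 called among these 7, whose log2 fold changes ran from -0.57 (TRIM22) to 0.63. Its 14 tested neighbours outside the family had a median of 0.05, with 1 higher and 0 lower. On chromosome 6, TRIM31 lies near TRIM26 and TRIM39, with log2 fold changes of 1.14, -0.11 and -0.17. On chromosome 5, TRIM7, TRIM41 and TRIM52 lie together and differed by -0.63, -0.26 and 0.20.

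The 14 members that were not tested had at most 13 counts in any library. TRIM9, TRIM40, TRIM49B, TRIM55, TRIM58, TRIM63 and TRIM67 had at most 4 counts in any library, too few to compare the groups. TRIM63, TRIM54 and TRIM55 are the muscle ring finger genes of striated muscle. TRIM54 had 4, 9 and 13 counts in STAT3 shRNA libraries 1, 2 and 3 and 2, 2 and 0 in control libraries 1, 2 and 3. TRIM73 had 13, 10 and 7 counts with the STAT3 shRNA and 5, 2 and 7 with the control, and its copy TRIM74, with 91.7% of its 50-base windows also in TRIM73, had at most 3. TRIM46, of the axon initial segment, TRIM72, of membrane repair in muscle, TRIM10, of red cell precursors, and TRIM61 had at most 10 counts in any library. Beside these copies and the TRIM16 pair, TRIM34, TRIM6 and TRIM39 share 83.1%, 25.9% and 27.0% of their windows with other genes, among them the read-through genes TRIM6-TRIM34 and TRIM39-RPP21, and TRIM61 and TRIM49B share 31.1% and 45.5%, so their counts are uncertain. Exons of 19 members are overlapped by a gene on the other strand.

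Family genes that bear other names, and the E2 enzymes that load TRIM ligases, were set beside the members. Of 7 family genes with other names 4 were tested and 1 was called (median 0.33), where 17.5% of all tested genes were called. MID1, a ligase of microtubules and of protein phosphatase 2A that is mutated in Opitz syndrome, fell to 4.67 ± 0.588 CPM with the STAT3 shRNA, against 12.0 ± 2.07 CPM with the control. Its log2 fold change of -1.36 ± 0.174 (edgeR adjusted p = 7.48e-04) was called in all 12 alternative fits. Its close relative MID2 had 9.11 ± 0.889 CPM with the STAT3 shRNA and 6.95 ± 0.898 CPM with the control (0.39 ± 0.155, edgeR adjusted p = 0.123), and PML, the organiser of nuclear bodies, had 44.9 ± 2.37 CPM with the STAT3 shRNA and 37.1 ± 2.83 CPM with the control (0.27 ± 0.0995, edgeR adjusted p = 0.0923). Of 12 E2 genes, 2 rose and 2 fell (median -0.02), where 9.39% of all tested genes were higher and 8.13% lower. UBE2D4 (0.53 ± 0.103, edgeR adjusted p = 0.00713) and UBE2D1 (0.45 ± 0.106, edgeR adjusted p = 0.0196), E2 enzymes with broad chain types, rose. UBE2E3 fell to 34.9 ± 2.40 CPM with the STAT3 shRNA, against 53.4 ± 2.14 CPM with the control (-0.61 ± 0.0954, edgeR adjusted p = 0.00226), and UBE2V2, the inactive partner of the lysine 63 chain enzyme UBE2N, fell by 0.37 on the log2 scale (edgeR adjusted p = 0.0252). The 4 calls became 2 without any 1 STAT3 shRNA library or without control library 2.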

How the data were processed

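Gene expression was measured by RNA sequencing of total RNA from 3 STAT3 shRNA and 3 control shRNA libraries. The table the authors deposited holds raw counts, as whole numbers with 1 row per gene. For library kit, strand setting, aligner, counting program and build the answer is: not given in the sources used here. Groups and library numbers came from the titles. The members, gene lists and tests were chosen with earlier results of these data known.

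Counts were analysed with edgeR 4.0.16 in R 4.3.3: filterByExpr (minimum count 10, minimum total 15), TMM scaling, quasi-likelihood F tests (robust settings) in a model of group only, two-sided, with Benjamini-Hochberg adjustment over 14999 genes at an FDR of 0.05. TMM assumes that most genes do not differ. The SE is the absolute log2 fold change over the square root of F, and intervals use the t quantile of the test's degrees of freedom. Exon lengths, gene types, overlaps, gene order and shared 50-base windows came from GENCODE 29, in which all 56 members were found by identifier. The procedure was also run on simulated counts, whose outcome is not given here and on which no call rests. Alternatives were other scalings, no filter, DESeq2 1.42.0, a replicate block and leaving out each library. Genes given with values by library were those called, and in each domain class the uncalled member with the highest mean CPM; TRIM7, TRIM8, TRIM11 and the scarce genes given with counts were added after their values were seen. In other lists, up to 4 called genes with the smallest FDR were named; MID2 and PML were chosen after their values were seen.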

Additional observations from a re-analysis of the deposited data

How the results depend on the processing

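All genes tested gave 2627 calls, and 2278 to 3009 in the 6 alternatives that kept every library. The share of calls that were higher was 53.6%, and 68.7% with library totals. Leaving out 1 library gave 1462 to 4098 calls, 0 to 3 TRIM genes called higher against 4, and 0 to 3 called lower against 1. The lower count was 0 with upper-quartile scaling or library totals and 2 with the DESeq2 Wald test. Leaving out 1 library gave 0 to 1 calls in the interferon-inducible TRIM list, 0 to 4 among sensing partners, 0 to 2 among TRIM28 partners, 2 to 5 among E2 enzymes and 0 to 2 for ISG15 conjugation. Family genes with other names gave 2 calls, against 1, under upper-quartile scaling or library totals. The STAT3 log2 fold change stayed between -2.84 and -2.72 in all alternatives. A fit that leaves out 1 library also has fewer libraries, and why these counts moved was not tested.

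The sign of 12 uncalled TRIM genes turned in some fits, none of them called in any. With upper-quartile scaling the log2 fold changes became 0.0316 for TRIM16L, 0.0343 for TRIM35, 0.0185 for TRIM36 and 0.0227 for TRIM59, and with library totals 0.0006 for TRIM14, 0.076 for TRIM16L, 0.0793 for TRIM35, 0.0598 for TRIM36 and 0.0641 for TRIM59. Leaving out 1 library gave ranges of -0.28 to 0.0501 for TRIM13, -0.0805 to 0.0444 for TRIM16L, -0.0688 to 0.0725 for TRIM21, -0.009 to 0.11 for TRIM27, -0.0266 to 0.0613 for TRIM32, -0.0147 to 0.41 for TRIM34, -0.0815 to 0.0267 for TRIM35, -0.12 to 0.12 for TRIM36, -0.11 to 0.13 for TRIM38, -0.13 to 0.097 for TRIM59 and -0.0169 to 0.10 for TRIM69.

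Library numbers gave no clear pairing of the samples: deviations from the group mean correlated at 0.279, 0.191 and -0.227 for numbers 1, 2 and 3, and not every library correlated best with its own number. With 3 libraries in each group these correlations cannot show that the samples were unpaired. With the number as a replicate block 2278 genes were called, and TRIM5, TRIM2 and TRIM37 were higher and TRIM7 lower (3 and 1).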
